A study of Mus musculus with 10 samples.

Results

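Chemokine receptors are the surface proteins through which leukocytes read gradients of chemokines, and 9 of their genes are described here in lung eosinophils: Ccr1, Ccr2, Ccr3, Ccr7, Ccr8, Cxcr2, Cxcr4, Ccrl2 and Cx3cr1. They were chosen by gene symbol, and all 9 were found among the 35725 rows of the deposited count table. Eosinophils, granulocytes that gather in allergic airways, had been sorted by flow cytometry from the lungs of male mice, with 5 libraries of a P2ry14-null strain and 5 of wild-type C57BL/6J mice (WT). P2ry14 encodes a G protein-coupled receptor that senses UDP-sugars released by stressed cells. All mice of both groups went through the same asthma model: a pair of oropharyngeal sensitizations (ovalbumin at 50 µg, mixed with 20 µg of a protease from Aspergillus oryzae), then, 7 days after the last of them, a 1% ovalbumin aerosol, with eosinophils taken 16 h later. There was no unchallenged group, so levels before the allergen challenge were not measured. The sources used here do not give how the null allele was made, the genetic background of the null strain, the age of the mice or whether each library came from a separate mouse. All p-values therefore refer to the spread between libraries, part or all of which may be technical.

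Most chemokine receptors couple to Gi proteins, which lower cyclic AMP and release G protein beta-gamma subunits that turn on phosphoinositide 3-kinase, Rac and the actin machinery of migration. Kinases of the GRK family and arrestins then switch the receptor off. Ccr3 is the receptor for eotaxins and is the classic homing receptor of eosinophils. Ccr1 binds Ccl3, Ccl5 and related chemokines, Cxcr4 binds Cxcl12 and holds leukocytes in bone marrow, and Cxcr2 binds Cxcl1 and Cxcl2 and is best known from neutrophils. Ccrl2 is an atypical receptor that holds the chemoattractant chemerin at the cell surface without the usual chemokine signalling. Ccr2 and Cx3cr1 are the Ccl2 and fractalkine receptors of monocytes, Ccr7 guides dendritic cells and T cells to lymph nodes, and Ccr8 marks subsets of T cells and innate lymphoid cells.

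Of the 9 genes, 6 lie on chromosome 9 of mm10. Ccr1 (gene ID 12768; 123962126 to 123968692, minus strand), Ccr3 (12771; 124017825 to 124031689, plus) and Ccr2 (12772; 124101918 to 124109140, plus) stand in 1 cluster. Cx3cr1 (13051; 120048683 to 120068296, minus) and Ccr8 (12776; 120092133 to 120094906, plus) are neighbours with a gap of 23.8 kb, and Ccrl2 (54199; 111054834 to 111057518, minus) stands alone. Cxcr2 (12765; 74153994 to 74161246, plus) and Cxcr4 (12767; 128588199 to 128592299, minus) lie on chromosome 1, and Ccr7 (12775; 99144199 to 99155077, minus) on chromosome 11. Values below are reads per gene as deposited. Among the 9, Ccr1 and Ccr3 share the longest exact run in their coding sequences, with 47 identical bases in a row. Identity over the whole sequences was not compared. That stretch is shown because reads of near-identical genes could be mixed up. The shared run is in capitals, with 30 bases on each side in lower case, from positions 805 to 911 of the Ccr1 and 817 to 923 of the Ccr3 coding sequence (GENCODE vM21, GRCm38).
Ccr1: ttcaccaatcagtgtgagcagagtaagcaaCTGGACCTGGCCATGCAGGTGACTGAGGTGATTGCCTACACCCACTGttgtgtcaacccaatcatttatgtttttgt
Ccr3: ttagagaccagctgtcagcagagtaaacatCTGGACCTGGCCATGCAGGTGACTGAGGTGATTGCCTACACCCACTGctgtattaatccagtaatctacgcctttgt
The run is shorter than a window of 50 bases, and Ccr1, Ccr3, Ccr7, Ccr8, Cxcr4 and Ccrl2 shared 0 windows of 50 bases with any other annotated gene. Cxcr2 shared 6.77% of its windows with other genes, Ccr2 2.27% and Cx3cr1 1.06%, so reads of these genes may be less certain to be their own. Cx3cr1 was also the sole one of the 9 with exon bases under another annotated gene, 78 bases of the antisense transcript Gm33858. Windows were taken over a gene's longest coding transcript, and overlaps over its whole GENCODE model. The whole models of Ccr2 and Cx3cr1 hold 6760 and 4505 exon bases, against 5617 and 3753 inside the spans above. Whether the shared bases lie inside those spans was not checked.

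Total counts ran from 67161968 to 185124080 reads per library, so 3 reads, the most that a count of 0 allows, were worth 0.0162 to 0.0447 CPM (counts scaled to 1000000 reads) depending on the library, counting error only. P2ry14 itself had 190 to 229 CPM in WT and 21.8 to 24.2 CPM in P2ry14-null libraries (edgeR log2 fold change -3.19 ± 0.06, SE), so the labels held. The sum of 10 eosinophil markers was high in all libraries, at 10118 to 11032 CPM in WT and 10222 to 10923 CPM in P2ry14-null. It was led by Alox15, a lipoxygenase gene, at 5013 CPM in WT. The lowest of the 10 were Epx, Ear1 and Ear2, at 23.9, 17.0 and 14.9 CPM in WT. Of the 15586 genes with enough reads to test, 6 passed an edgeR adjusted p of 0.05, and DESeq2 called 18. P2ry14-null library 2 stood apart in markers of other cells. It held 347 CPM of dendritic cell markers against 65.8 to 102 CPM in the other 4 P2ry14-null libraries and 90.1 to 122 CPM in WT, and 72.5 CPM of lung epithelial markers against 4.81 to 24.2 CPM in the other 9. Nearly all of its dendritic cell sum was Cd74, H2-Ab1 and H2-Eb1, at 208, 64.6 and 63.6 CPM. The 6 listed mast cell and basophil markers summed to 88.8 to 103 CPM in WT and 58.5 to 81.6 CPM in P2ry14-null (two-sided exact permutation p = 0.0079, the smallest that 5 against 5 allows, not adjusted over the 8 marker sums). Nearly all of that sum was Gata2 and Hdc, at 46.8 and 46.0 CPM in WT, with the other 4 genes under 0.6 CPM each, and their part in the results was not tested.

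The levels of the 9 receptors spanned more than 4 orders of magnitude, and the order of their means was the same in both genotypes. Levels of different genes can be set side by side only per length, here as reads per kilobase of exon, scaled for depth (RPKM), with exon lengths from GENCODE vM21, which need not be those the submitters counted over. In the 5 WT libraries Cxcr4 stood first at 1176 ± 103 RPKM (SD, n = 5), followed by Ccrl2 at 615 ± 90.01, Ccr3 at 418 ± 48.5 and Ccr1 at 199 ± 30.03. Cxcr2 followed at 43.7 ± 6.39 RPKM. Ccr2 at 3.56 ± 0.62, Cx3cr1 at 2.18 ± 0.28 and Ccr7 at 0.618 ± 0.123 RPKM made up a lower tier, and Ccr8 came last at 0.0454 ± 0.0317. Neighbours in this order of 9 did not overlap in range over the 5 WT libraries: Cxcr4 reached down to 1027 RPKM where Ccrl2 reached up to 717, and Ccrl2 reached down to 534 where Ccr3 reached up to 490. The means of the P2ry14-null libraries, and WT means with the longest transcript in place of all exons, gave the same order of the 9. In P2ry14-null some ranges overlapped: Ccr2 reached down to 2.40 RPKM where Cx3cr1 reached up to 3.79. Likewise, Cx3cr1 reached down to 1.25 where Ccr7 reached up to 1.29.

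**Figure D1:**
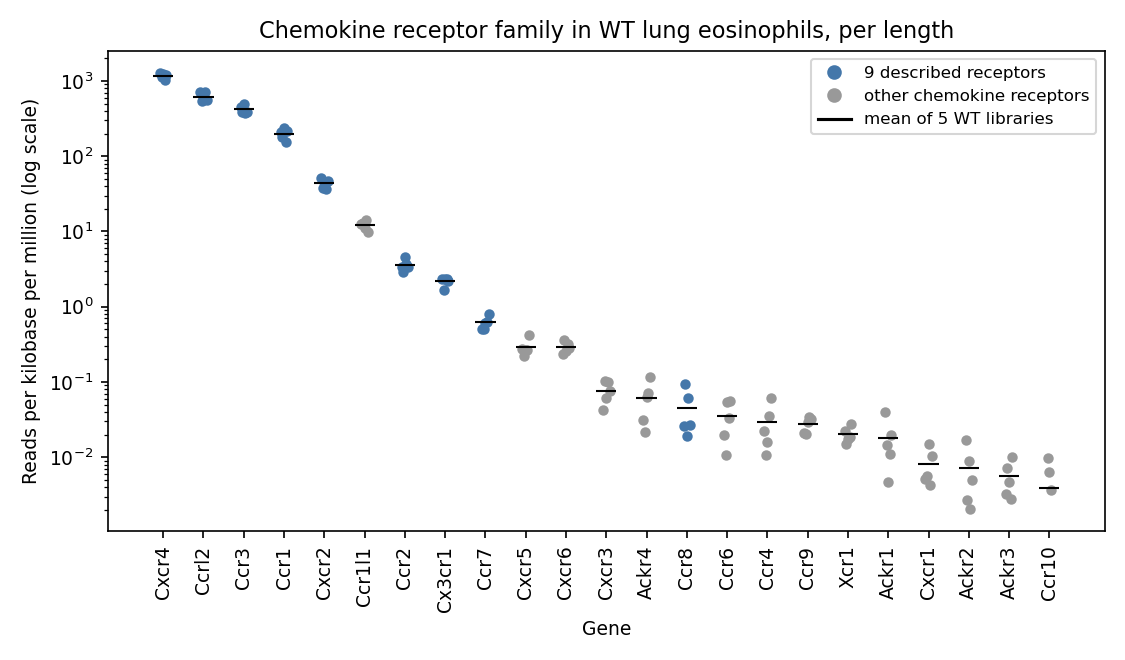
Level per length of all 23 listed chemokine receptor genes in WT lung eosinophils. The y axis is RPKM on a log scale, each point is 1 of 5 WT libraries, and black lines are means. Cxcr4, Ccrl2, Ccr3 and Ccr1 stand between 199 and 1176, and Ccr8 is at 0.0454 among genes that are barely read. For Ccr10, 2 libraries at 0 are not drawn.

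Among 14 other chemokine receptor genes listed for comparison, Ccr1l1, a gene close to Ccr1 in sequence, was the highest at 12.2 ± 1.71 RPKM. The other 13 stood at 0.292 RPKM (Cxcr5) or lower, below Ccr7 in all WT libraries. Summed over these 23 genes per length, Cxcr4 made up 47.6% ± 2.24, Ccrl2 24.9% ± 3.58, Ccr3 16.9% ± 1.13 and Ccr1 8.03% ± 0.95 of the receptor signal in WT (SD, n = 5), and 47.3%, 23.4%, 18.3% and 8.28% in P2ry14-null. The eotaxin receptor that marks the lineage was thus the third in transcript level, behind the Cxcl12 receptor and the chemerin-binding receptor.

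Genes of the same cluster differed widely in level. In the chromosome 9 cluster, 7 of the listed receptor genes lie within 342 kb, and their WT means ran from 0.0202 RPKM for Xcr1 to 418 RPKM for Ccr3. Ccr3 and Ccr2, with a gap of 70.2 kb, stood at 418 and 3.56 RPKM, and Ccr1 and its neighbour Ccr1l1, with a gap of 8.26 kb, at 199 and 12.2 RPKM. Ccr9, Cxcr6 and Xcr1, side by side at the left end, were the lowest of the 7, at 0.0274, 0.290 and 0.0202 RPKM. Whether level follows position was not tested.

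**Figure D2:**
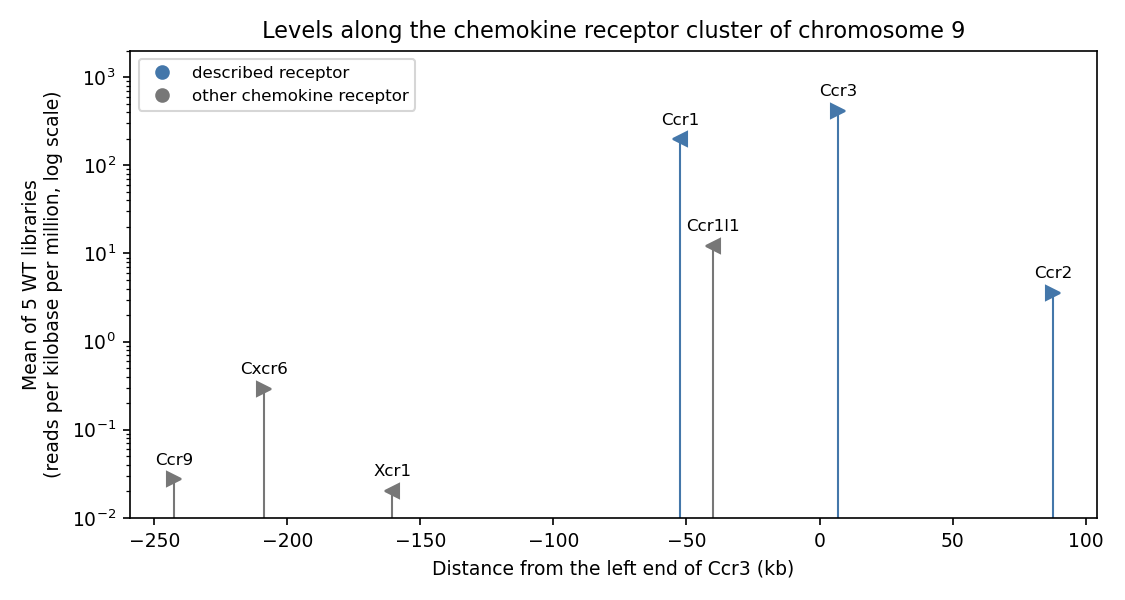
WT level of 7 receptor genes of the chromosome 9 cluster, by distance from the left end of Ccr3 in kb (x axis) and mean RPKM of 5 WT libraries on a log scale (y axis). Arrowheads point along each gene's strand and blue marks described receptors. Ccr1 and Ccr3, at 199 and 418, rise above neighbours at 12.2 or less.

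The genotype comparison asked whether eosinophils without P2ry14 carry a different set of chemokine receptor transcripts after challenge. They did not differ past the threshold in any of them. Of the 9 genes, 8 had enough reads for the fit and 0 of these 8 passed an edgeR adjusted p of 0.05 over all 15586 genes, of which 0.0385% passed (0.0128% higher and 0.0257% lower in P2ry14-null). At an unadjusted p under 0.05 the count was also 0 of 8 in edgeR, against 4.13% of all genes, and 0 of 8 in DESeq2. Both groups overlapped in all 9 genes, where 0.648% of the tested genes separated them. Of the 8 log2 fold changes (P2ry14-null minus WT), 4 lay above 0 and 4 below (48.8% of all tested genes lay below), with a median of 0.02 beside 0.003 for all tested genes. A p that misses the threshold does not show that levels are equal, so the 95% interval of each difference is given with it.

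Ccr3, the eotaxin receptor, held 1465, 1255, 1603, 1244 and 1278 CPM in WT libraries 1 to 5 and 1403, 1311, 1511, 1485 and 1432 CPM in P2ry14-null libraries 1 to 5. The highest single value, in WT library 3, and the lowest, in WT library 4, were both WT. The edgeR log2 fold change was 0.06 ± 0.08 (SE), a ratio of 1.04 with a 95% interval from 0.932 to 1.17. A change of Ccr3 by more than that interval in either direction was therefore not seen.

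Cxcr4, the Cxcl12 receptor, held 2337, 2042, 2248, 1856 and 2152 CPM in WT libraries 1 to 5. P2ry14-null libraries 1 to 5 held 2206, 1979, 2068, 2079 and 1881 CPM. All 5 P2ry14-null values lay within the WT range. The ratio was 0.960 (95% interval 0.868 to 1.06; edgeR log2 fold change -0.06 ± 0.07). This was the receptor with the least spread between WT libraries, at a coefficient of variation of 8.79%.

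Ccr1, which binds Ccl3 and Ccl5, held 588, 515, 663, 443 and 604 CPM in WT and 563, 555, 593, 552 and 535 CPM in P2ry14-null libraries 1 to 5. WT libraries spread more, with a coefficient of variation of 15.1% against 3.78%, and enclosed all P2ry14-null values. The ratio was 0.994 (95% interval 0.870 to 1.14; edgeR log2 fold change -0.01 ± 0.09).

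Ccrl2, the atypical chemerin receptor, held 1594, 1202, 1261, 1613 and 1247 CPM in WT and 1285, 1133, 1362, 1335 and 1179 CPM in P2ry14-null libraries 1 to 5. WT libraries 1 and 4 stood above all other 8. Its ratio of 0.910 (95% interval 0.792 to 1.05; edgeR log2 fold change -0.14 ± 0.09) had the smallest unadjusted p of the 8, at 0.165 in edgeR, and was at an adjusted p of 0.999, as were the other 7.

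Cxcr2, known from neutrophils, held 156, 114, 139, 111 and 144 CPM in WT and 138, 158, 128, 107 and 119 CPM in P2ry14-null libraries 1 to 5. Highest and lowest values were both P2ry14-null. The ratio was 0.980 (95% interval 0.828 to 1.16; edgeR log2 fold change -0.03 ± 0.11). Summed neutrophil markers ran from 3847 to 4838 CPM in WT and 3818 to 5638 CPM in P2ry14-null. Most of that sum was Retnlg at 3782 CPM in WT, followed by Mmp9 at 306 and S100a9 at 109 CPM. Csf3r stood at 13.2 CPM in WT and 16.1 in P2ry14-null, where library 2 held 30.5 CPM and the others 10.6 to 14.7 CPM. Of the neutrophil genes Ly6g and S100a8, the first stood at 1.24 ± 0.15 (WT) and 1.65 ± 0.36 CPM (P2ry14-null), and the other at 0.981 ± 0.213 and 1.97 ± 1.53 CPM (SD, n = 5), or 1.301 CPM in P2ry14-null without library 2. No rise of Cxcr2 with the neutrophil sum, which is mostly Retnlg, was seen from library to library (Pearson's r = -0.34, exact permutation p = 0.370, Spearman's rho = -0.43, exact permutation p = 0.259, n = 10). Without the 2 libraries farthest from the median of the sum, group means removed, r was -0.51. No correlation without Retnlg is given. P2ry14-null library 2, the highest in Cxcr2, was also the highest in Csf3r, S100a8 (4.65 CPM) and Mmp8 (2.05 CPM). It was the lowest in Retnlg (3408 CPM) and Mmp9 (248 CPM), and at neither end in the other listed neutrophil markers.

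**Figure D3:**
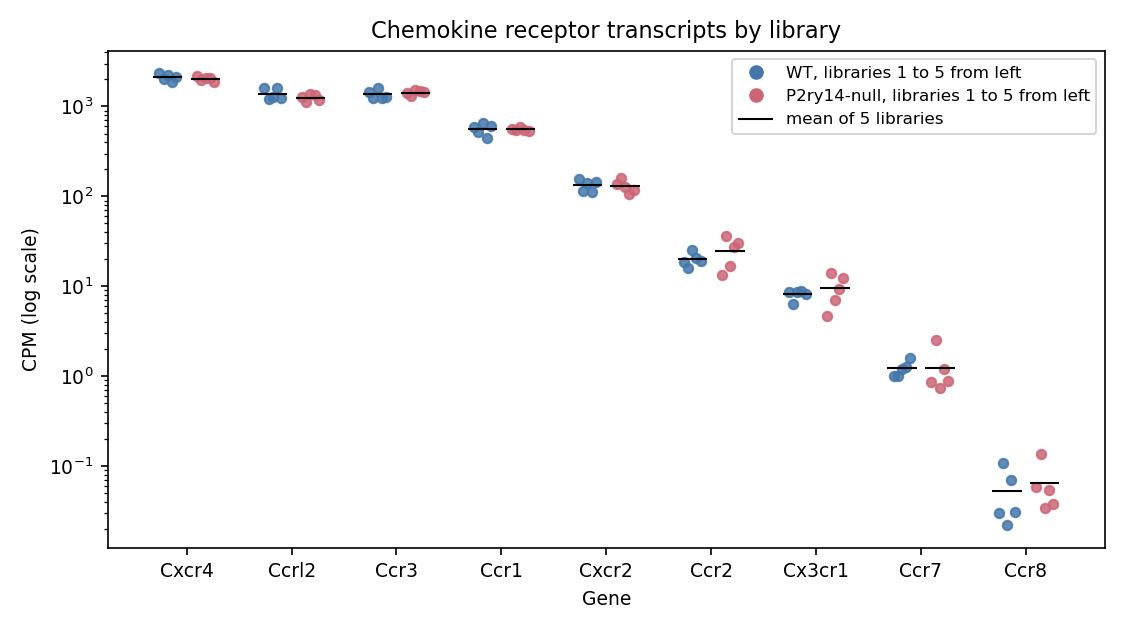
CPM of the 9 receptors in each library on a log scale (y axis), WT in blue and P2ry14-null in red, libraries 1 to 5 from left to right in each group, with the mean of 5 as a line. CPM is not scaled for gene length, so heights compare libraries within a gene. The groups overlap in every gene, and Ccr2 and Cx3cr1 spread more in P2ry14-null.

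Ccr2 and Cx3cr1 varied more between P2ry14-null than between WT libraries. Ccr2, the Ccl2 receptor of monocytes, held 18.8, 16.0, 25.4, 20.7 and 19.1 CPM in WT libraries 1 to 5. In P2ry14-null libraries 1 to 5 it held 13.5, 35.9, 17.0, 27.4 and 30.6 CPM. Libraries 2, 4 and 5 of P2ry14-null lay above all WT libraries and library 1 below all of them. The coefficient of variation was 37.7% in P2ry14-null (36.9% without library 2) and 17.3% in WT, a difference that was not tested. The ratio was 1.25 with a wide 95% interval from 0.893 to 1.74 (edgeR log2 fold change 0.32 ± 0.22), and the log2 fold change was 0.15 ± 0.20 without P2ry14-null library 2 and 0.47 ± 0.18 without library 1 (edgeR unadjusted p = 0.024, adjusted p = 1.00).

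Cx3cr1, the fractalkine receptor, held 8.75, 6.35, 8.65, 8.88 and 8.33 CPM in WT and 4.70, 14.2, 6.99, 9.45 and 12.4 CPM in P2ry14-null libraries 1 to 5. The same P2ry14-null libraries as for Ccr2, 2, 4 and 5, lay above all WT libraries, and library 1 was again the lowest. The ratio was 1.17 (95% interval 0.828 to 1.66; edgeR log2 fold change 0.23 ± 0.23), and the log2 fold change was 0.04 ± 0.21 without P2ry14-null library 2 and 0.39 ± 0.18 without library 1 (edgeR unadjusted p = 0.046, adjusted p = 1.00). Its coefficient of variation was 40.5% in P2ry14-null (39.3% without library 2) and 12.8% in WT.

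Ccr2 and Cx3cr1 followed each other closely across the 10 libraries. With group means removed, Pearson's r was 0.95 (exact permutation p = 0.000833 within groups, 0.030 adjusted over the 36 pairs of the 9 genes) and Spearman's rho 0.84 (exact permutation p = 0.016, adjusted 0.288). It was the sole pair of 36 past the threshold by r, in a comparison made after the values had been seen. Without P2ry14-null libraries 1 and 2, the pair farthest from the median of Ccr2 once group means are removed, r was 0.87. Without library 2 alone it was 0.93 (exact permutation p = 0.010, adjusted 0.313), so the adjusted call is lost without that library.

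Because the members of this pair moved together, the stretch from 250 bases before to 50 bases after each annotated start is shown for both, with that of Ccr3, the neighbour of Ccr2, whose r with Ccr2 was 0.06 (exact permutation p = 0.823, adjusted 0.955; rho = -0.09, exact permutation p = 0.787; without the same pair of libraries r = 0.31). Sequences and starts are from RefSeq on GRCm38.p6, 5′ to 3′ on the gene's strand. The Ccr2 and Ccr3 stretches lie wholly inside the gene spans given above, which begin earlier, at 124101918 and 124017825. Positions are thus relative to the RefSeq start and not to the start of those spans. Capitals mark matches, on either strand, to the letters of 4 motifs. The motif of GATA factors was searched as AGATAA and, with a different first base, as TGATAA. That of ETS factors was searched as GAGGAA only, so shorter or other forms of it were not marked or counted. The AP-1 motif was searched as TGACTCA, and the TATA box by the letters TATAAA.
Ccr2 at chr9:124101933-124102232, plus strand: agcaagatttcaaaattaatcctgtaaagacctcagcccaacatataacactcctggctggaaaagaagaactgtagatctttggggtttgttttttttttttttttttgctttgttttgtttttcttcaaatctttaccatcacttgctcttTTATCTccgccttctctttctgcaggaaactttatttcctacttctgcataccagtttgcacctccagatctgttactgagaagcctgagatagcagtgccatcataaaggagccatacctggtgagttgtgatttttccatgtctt
Cx3cr1 at chr9:120068247-120068546, minus strand: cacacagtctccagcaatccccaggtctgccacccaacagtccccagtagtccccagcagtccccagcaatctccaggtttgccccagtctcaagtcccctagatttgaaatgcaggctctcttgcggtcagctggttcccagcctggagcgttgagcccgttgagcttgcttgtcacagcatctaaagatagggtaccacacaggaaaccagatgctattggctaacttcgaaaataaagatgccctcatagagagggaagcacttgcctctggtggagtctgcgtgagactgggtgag
Ccr3 at chr9:124021721-124022020, plus strand: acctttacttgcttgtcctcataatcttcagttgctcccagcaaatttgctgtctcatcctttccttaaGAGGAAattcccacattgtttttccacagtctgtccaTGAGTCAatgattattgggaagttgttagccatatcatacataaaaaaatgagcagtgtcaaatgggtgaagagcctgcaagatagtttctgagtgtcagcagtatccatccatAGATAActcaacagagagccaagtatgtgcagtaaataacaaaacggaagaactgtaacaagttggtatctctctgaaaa
The Ccr2 stretch held 1 GATA match, starting at position -97 from the RefSeq start, and the Cx3cr1 stretch held 0 matches to the letters searched for the 4 motifs. The Ccr3 stretch held a GATA match at -30, an AP-1 match at -144 and an ETS match at -181, none of which overlap. Of 32851 such stretches in the mouse table, 18.6% held the GATA letters, 28.3% the ETS, 5.20% the AP-1 and 13.6% the TATA letters. The table had 10 stretches for 8 of the 9 genes, 3 of them for Ccrl2, and 5 of the 10 held the GATA letters, 3 the ETS, 1 the AP-1 and 1 the TATA letters. Of the 5 with GATA letters, 2 are overlapping Ccrl2 stretches that hold the same sites. Matching letters are a description of these windows and no evidence of binding. Ccr7 had no entry.

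In sorted bulk RNA, fewer cells of a type and less RNA per cell cannot be told apart, and the low receptors were therefore set beside markers of cells that carry them. Monocyte and macrophage markers (10 genes) summed to 505 to 565 CPM in WT and 519 to 687 CPM in P2ry14-null, most of it Csf1r at 432 CPM in WT. Ccr2 and Cx3cr1 had r = 0.63 and 0.67 with this sum (exact permutation p = 0.130 and 0.125, adjusted over 6 relations 0.195 for both; rho = 0.60 and 0.62, exact permutation p = 0.133 and 0.096). Ccr1 had r = 0.09 (exact permutation p = 0.707; rho = 0.16, exact permutation p = 0.616). Without P2ry14-null libraries 2 and 3, which lie farthest from the median of the sum once group means are removed, r was 0.32 for Ccr2, 0.44 for Cx3cr1 and 0.34 for Ccr1. In P2ry14-null libraries 4 and 5, where Ccr2 was high, the sum was 558 and 530 CPM, inside the WT range. The part of other cells in the spread of Ccr2 and Cx3cr1 was not tested.

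Ccr7, the lymph node homing receptor, held 1.01, 1.01, 1.22, 1.25 and 1.61 CPM in WT libraries 1 to 5, on 121 to 221 reads each. P2ry14-null libraries 1 to 5 held 0.860, 2.54, 0.734, 1.20 and 0.891 CPM, on 58 to 392 reads. Library 2 stood far above the other 4, of which 3 lay below all WT libraries. With all libraries the edgeR log2 fold change was 0.04 ± 0.30 (ratio 1.03, 95% interval 0.657 to 1.61). Without P2ry14-null library 2 it was -0.40 ± 0.18, with an edgeR unadjusted p of 0.039 and an adjusted p of 1.00, and it also fell just below 0, at -0.02, without WT library 1 or WT library 2. Ccr7 rose with the summed dendritic cell markers (r = 0.92, exact permutation p = 0.015, adjusted 0.045; rho = 0.85, exact permutation p = 0.017, which missed the threshold at 0.1004 when adjusted). Leaving out P2ry14-null libraries 2 and 3, which had the most extreme marker sums, gave r = 0.57. Without library 2 alone r was 0.58 (exact permutation p = 0.133, adjusted 0.353), so the relation rests on that library. The adjusted p passed in 2 of the 10 fits that each leave out 1 library, those without WT library 1 or P2ry14-null library 5. Of the 10 dendritic cell markers, Cd74 was the highest at 67.4 CPM in WT and 208 CPM in P2ry14-null library 2. H2-Ab1 and H2-Eb1 followed at 64.6 and 63.6 CPM in library 2, so the sum is mostly these genes and Cd74. Of the low markers, Flt3, Cd209a, Fscn1, Ccl22 and Ccl17 were also highest in library 2. Zbtb46 and Clec9a, at 1.17 and 2.26 CPM there, were not. The part of dendritic cells in the Ccr7 reads was not tested.

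Ccr8, a receptor of T cell and innate lymphoid subsets, was close to the limit of these libraries. It had 4, 13, 4, 11 and 4 reads in WT and 4, 21, 5, 7 and 6 reads in P2ry14-null libraries 1 to 5, each just above the 3 reads that a count of 0 allows or a few times that. In CPM this was 0.0221 to 0.109 in WT and 0.0340 to 0.136 in P2ry14-null, with library 2 again the highest. The gene was left out of the fit for low counts. Summed reads of 43 in P2ry14-null and 36 in WT gave a depth-scaled ratio of 1.31, with an exact 95% interval of 0.824 to 2.10 that covers counting error alone. Of the 43 reads, 21 were from P2ry14-null library 2. Without it the ratio was 0.879 (exact 95% interval 0.493 to 1.54), below 1, and with other single libraries left out it ran from 1.10 to 1.71, the highest without WT library 2 (exact 95% interval 1.01 to 2.98), an alternative chosen after seeing the data. Ccr8 rose with summed T cell and ILC2 markers (r = 0.73, exact permutation p = 0.015, adjusted 0.045; rho = 0.58, exact permutation p = 0.035, adjusted 0.105). Leaving out P2ry14-null libraries 1 and 2, which had the most extreme marker sums, gave r = 0.68, and without library 2 alone r was 0.42 (exact permutation p = 0.130, adjusted 0.353). The adjusted p passed in 2 of the 10 fits that each leave out 1 library, those without P2ry14-null library 1 or 5. That sum was 12.0 CPM in library 2 and 5.02 to 6.04 CPM in the other 9 libraries. A difference in Ccr8 between the genotypes was not detectable at this depth.

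**Figure D4:**
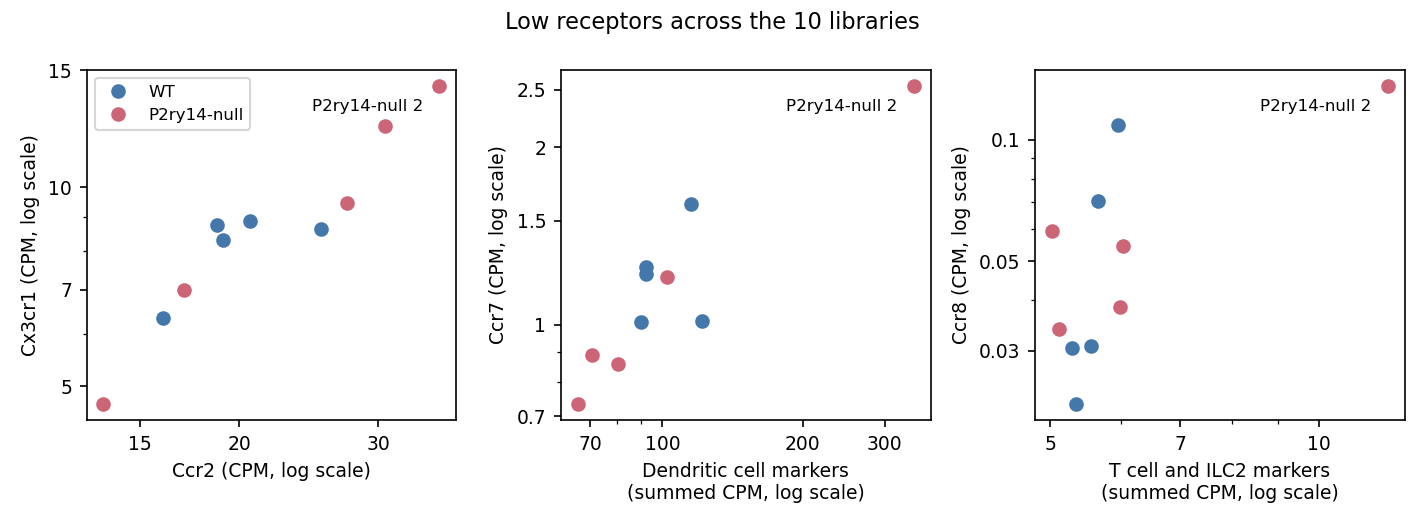
Cx3cr1 against Ccr2, Ccr7 against summed dendritic cell markers, and Ccr8 against summed T cell and ILC2 markers, all in CPM on log scales, 1 point per library, WT in blue and P2ry14-null in red. In the left panel the points form a band (r = 0.95 with group means removed), while in the other panels P2ry14-null library 2 lies far from the other 9.

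**Figure D5:**
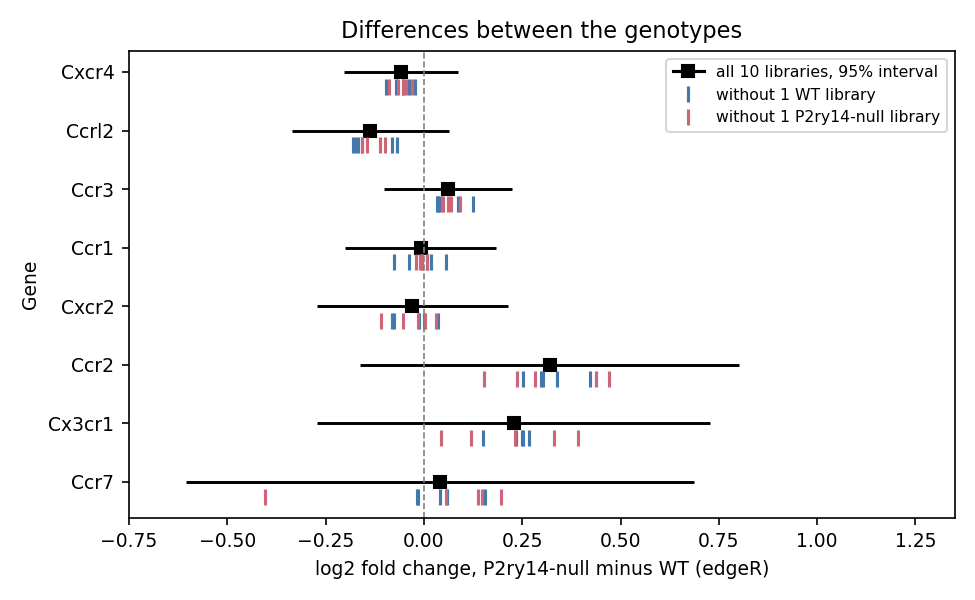
edgeR log2 fold change, P2ry14-null minus WT, of the 8 tested receptors (squares) with 95% intervals (lines), all of which include 0. Ticks give the value with 1 WT (blue) or 1 P2ry14-null (red) library left out. Ccr7 moves to -0.40 without P2ry14-null library 2, and the 5 high receptors stay between -0.181 and 0.125.

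The genes whose levels followed each receptor most closely over the 10 libraries, by Pearson's r of log2 CPM with group means removed, are given as a description. They were picked as the 2 highest of about 8446 genes, so a high r is built into the choice. They were Gpbp1 and Ube2w for Ccr3 (r = 0.98 and 0.97), Adipor2 and Golga7 for Cxcr4 (0.97 and 0.96), Crebzf and Necap1 for Ccr1 (0.98 and 0.97), Txnrd1 and Eif4a1 for Ccrl2 (0.97 and 0.96) and Nup54 and Rnf5 for Cxcr2 (0.93 and 0.92). For Ccr2 they were Il6ra and Ms4a6c (0.98 and 0.97), for Cx3cr1 Plxnb2 and Pld4 (0.98 and 0.97), and for Ccr7 Hip1 and Cd74 (0.93 and 0.92). Leaving out P2ry14-null library 2 took Hip1 to 0.78 and Cd74 to 0.59 with Ccr7, and left the values of the other 7 receptors at 0.94 or more.

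Of the 14 other chemokine receptor genes, 8 were tested and 0 passed in edgeR over all genes (0 at an unadjusted p under 0.05). The fold changes had a median of 0.21 and 7 of 8 lay above 0, among them Ccr9 at 0.47 ± 0.27 and Ccr4 at 0.70 ± 0.49 on the log2 scale. Without P2ry14-null library 2 the median was 0.0046 and 4 of 8 lay above 0, with Ccr9 at 0.21 ± 0.24, Ccr4 at 0.19 ± 0.45 and Cxcr6 at 0.04 ± 0.23 (0.28 ± 0.27 with all libraries). Ccr1l1 was at 0.14 ± 0.11, and Cxcr5, a receptor of B cells, at -0.04 ± 0.38 with all libraries and -0.68 ± 0.21 without library 2 (edgeR unadjusted p = 0.0075, adjusted p = 1.00). B cell markers summed to 28.2 CPM in library 2 against 12.5 to 22.8 CPM in the other 9.

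Of 22 ligands of these receptors, 16 were tested, and 0 passed over all genes in edgeR or DESeq2. At an unadjusted p under 0.05, 6 of the 16 were counted in edgeR, where all genes gave 4.13%. The most abundant were Ccl6, a ligand of Ccr1, at 8952 (WT) and 8754 CPM (P2ry14-null; log2 fold change -0.03 ± 0.08), Cxcl2, a ligand of Cxcr2, at 2757 and 2532 CPM (-0.12 ± 0.13), and Ccl3, a ligand of Ccr1, at 267 and 217 CPM (-0.29 ± 0.11, edgeR unadjusted p = 0.020). The other 5 of the 6 were named after their values were seen. Ccl9 and Cxcl1 lay lower, at -0.10 ± 0.04 and -0.44 ± 0.18, and Ccl7, Ccl12 and Ccl24 higher, at 1.23 ± 0.47, 1.79 ± 0.65 and 0.96 ± 0.44. Ccl24, an eotaxin and so a ligand of Ccr3, held 26.9 CPM in P2ry14-null library 2 against 3.91 to 7.52 CPM in the other 9. Without that library Ccl7, Ccl12 and Ccl24 were at 0.45, 0.61 and 0.15. Ccl3 and Cxcl1 were then the 2 of 16 ligands left at an edgeR unadjusted p under 0.05, where all genes gave 4.08% in that fit. The eotaxin Ccl11 was at 0.376 ± 0.077 CPM in WT, and the Ccr7 ligands Ccl19 and Ccl21a had 0 reads in all 10 libraries.

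Among the signalling genes behind the receptors no difference passed the threshold. Of 31 symbols listed, 29 were in the table (the other 2 are older names of Grk2 and Grk3), all 29 were tested, and 0 passed over all genes in edgeR or DESeq2. Their log2 fold changes ran from -0.22 to 0.15 with a median of -0.01. The actin regulator Coro1a held 2523 and 2409 CPM in WT and P2ry14-null, respectively, the receptor kinase Grk2 1257 and 1240, and the G protein regulator Rgs2 1220 and 1264. The smallest p were those of the phospholipase Plcb3 at 0.13 ± 0.05 (edgeR unadjusted p = 0.028) and of the G protein regulator Rgs1 at 0.15 ± 0.08 (edgeR unadjusted p = 0.087). Plcb3 was the 1 of 29 at an unadjusted p under 0.05, where all genes gave 4.13%.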

How the data were processed

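The table the authors deposited holds raw counts of reads (whole numbers, 1 column a library). STAR 2.5, Subread, featureCounts 1.5.0-p1, DESeq2 and genome build mm10 are named, per the submitters' processing notes. The sources used here do not give the annotation, the strand setting or how multimapping reads were treated, so reads of overlapping genes on opposite strands cannot be told apart. Column names equalled the sample titles, which gave group and replicate. Chi-square values per gene were 23.1 or more for each pair of libraries within a group, so none was a copy.

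The fit used edgeR 4.0.16 (R 4.3.3) on genotype alone, with its TMM scaling and its default filter on low counts (15586 genes kept). P-values of its quasi-likelihood test were adjusted over all genes kept (Benjamini-Hochberg). Each SE was taken from the fold change and its F statistic. CPM uses TMM-scaled library sizes, and logs of single genes add 0.1 CPM. Correlations removed group means and were tested by all 14400 permutations within groups, two-sided. Alternatives were DESeq2 1.42.0, RLE factors, no filter, a replicate block and each library left out. Members, gene lists and tests were chosen with earlier results of these data known. Named genes were the 9 members, P2ry14, in each pathway list the 3 highest by CPM and the 2 with the smallest p, the highest gene of a marker list, and the 2 genes most alike each receptor of at least 1 CPM among genes of at least 5 CPM. Any other gene was picked once values were known. One gene of the list of other chemokine receptors is not reported here.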

Additional observations from a re-analysis of the deposited data

Results flagged for a closer look

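Among 34 sets of 5 libraries (9 receptors and 8 marker sums in 2 groups), 7 had a library set apart from the other 4 by Dixon's criterion, which chance alone meets in about 1 of 20 sets. Of the 7, 6 were P2ry14-null library 2. It held 2.54 CPM of Ccr7 against 0.734 to 1.20 CPM in the other 4, and 0.136 CPM of Ccr8 against 0.0340 to 0.0593 CPM. Its marker sums were 687 CPM for monocytes and macrophages against 519 to 558 CPM, 347 CPM for dendritic cells against 65.8 to 102 CPM, 12.0 CPM for T cells and ILC2 against 5.02 to 6.04 CPM, and 72.5 CPM for lung epithelium against 4.81 to 18.2 CPM. The seventh was Cx3cr1 in WT library 2, at 6.35 CPM against 8.33 to 8.88 CPM in the other 4 WT libraries.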

How the results depend on the processing

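In each of the 14 alternatives to the fit, 0 of the tested receptors, their ligands, the other receptors and the signalling genes passed the threshold. The count over all genes was 6, 18 in DESeq2 and 3 to 5 with single libraries left out (3 without WT library 4 or any 1 of P2ry14-null libraries 1, 2, 3 and 5). Ccr2, Ccr3, Ccrl2, Cxcr4 and Cx3cr1 kept their sign in all 14. With a replicate block, Ccr1 was at 0.0044 and Ccr7 at -0.11. With single libraries left out, Ccr1 ran from -0.077 to 0.057, Cxcr2 from -0.11 to 0.035 and Ccr7 from -0.40 to 0.20. The cause of these changes of sign was not tested. With no low-count filter the median of the ligands was 0.11, as more genes with few reads enter, and Ccr8 was at 0.33 ± 0.50 (edgeR adjusted p = 0.949). Correlations with markers ran, with single libraries left out, from 0.58 to 0.97 for Ccr7, 0.42 to 0.83 for Ccr8, 0.46 to 0.87 for Cx3cr1 and -0.68 to 0.0041 for Cxcr2. Those of Ccr7 and Ccr8 missed the adjusted threshold in 8 of these 10 fits each, and that of Cx3cr1 passed without P2ry14-null library 5 (adjusted p = 0.043). Without the 2 libraries farthest from the median of the marker sum, group means removed, r was 0.32 for Ccr2 and 0.57 for Ccr7. Leaving Csf1r out of the marker sum, an alternative chosen after seeing the data, gave 0.64 for Ccr2, 0.69 for Cx3cr1 and 0.16 for Ccr1. Same-numbered libraries did not deviate together (r from -0.15 to 0.19, and 1 of 5 WT libraries was closest to its own number), so the block is an alternative only. Depth limits Ccr8, at 4 to 21 reads per library.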
